A study of Mus musculus with 9 samples.

Results

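The 37 genes described here are glycolytic enzymes, glucose and lactate transporters, regulators of glycolytic flux and a set of targets of hypoxia-inducible factor (HIF). They also include the HIF alpha subunits Hif1a and Epas1, VHL and the HIF prolyl hydroxylases. They were taken by symbol from a list, and all 37 were found among the 27179 genes of the count table. All 37 passed the filter on low counts, as did 12840 genes in total. Egln3, Vegfa, Ndrg1 and Ankrd37 passed it only through the knockout libraries, since each was at or near 0 in at least 1 wild type library. Alveolar macrophages, the phagocytes of the lung airspaces, had been sorted by flow cytometry from the lungs of C57BL/6 mice aged 1 week, and their polyadenylated RNA was sequenced. The 5 Suz12 cKO libraries come from mice in which Suz12 was conditionally deleted, a gene whose product belongs to the Polycomb complex that methylates histone H3. The 4 WT libraries come from wild type mice, and the series text describes the libraries of both groups as biological replicates. The Cre driver, the deleted exons, the sorting gate, the sex of the mice and any pooling of animals are not stated in the labels.

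Glycolysis splits glucose into pyruvate, which enters mitochondria through pyruvate dehydrogenase or is reduced to lactate by lactate dehydrogenase. Oxygen acts on the pathway through HIF: prolyl hydroxylases of the Egln family mark the alpha subunits for VHL, which has them degraded. When oxygen is scarce HIF accumulates and switches on transporters, glycolytic enzymes and its own hydroxylase gene Egln3.

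The knockout libraries held 18.6 to 45.6 M counts assigned to genes and the wild type libraries 13.8 to 25.3 M (M, 1e6). Genes with any count numbered 15364 to 16757 in knockout and 12396 to 13372 in wild type libraries, ranges that do not overlap. Knockout library 4 (18.6 M) detected 15480 genes and wild type library 4 (25.3 M) 13168. IDs without a symbol took 0.875 to 1.2% of counts in knockout and 2.75 to 4.43% in wild type. The part of these differences in the results was not tested. Suz12 stood at 11.9 to 21.8 CPM (counts per 1e6 of the scaled library) in knockout and at 51.7 to 76.7 CPM in wild type libraries. Markers of alveolar macrophages summed to 22419.5 to 48883 CPM in knockout and 30863 to 69927 CPM in wild type (14 of 15 listed symbols were in the table), and 2 were called higher (Marco and Lpl) and 3 lower (Car4, Krt79 and Cd9). Markers of interstitial macrophages and monocytes (9 genes) summed to 386 to 1899 CPM in knockout and 88.8 to 153 CPM in wild type. Most of it came from Apoe. Of the 9 genes, 2 were called higher, Apoe among them, and 0 lower (22.2% and 0%, beside 8.97% and 11% of all genes tested). Log2 fold changes were positive in 8 of the 9 (88.9%, beside 54% of all genes tested), with a median of 0.97. Neutrophil markers (8 genes) summed to 63.9 to 197 CPM in knockout and 49.3 to 56.4 CPM in wild type, and 1 (Csf3r) was called higher. Erythroid markers (5 of 6 in the table) summed to 23.5 to 311 CPM in knockout and 24.6 to 116 CPM in wild type, and epithelial markers (8 genes) to 14.5 to 59.8 CPM in knockout and 13.2 to 35.5 CPM in wild type. Endothelial (6 genes), lymphoid (6 genes, Ncr1 at 0 in every library) and fibroblast markers (5 genes) stayed at or below 9.45 CPM in knockout and 8.08 CPM in wild type, and none of the erythroid, epithelial, endothelial, lymphoid or fibroblast markers was called. The part of these cells in the results was not tested. In bulk RNA, fewer cells of a type and less RNA per cell cannot be told apart. Knockout library 3 had the highest interstitial macrophage, neutrophil and erythroid sums of the 9 libraries. Its erythroid sum (311 CPM) was close to that of knockout library 2 (292 CPM). Among knockout libraries, library 3 also had the most Suz12 (21.8 CPM), the highest alveolar macrophage sum (48883 CPM) and the fewest genes detected (15364, beside 15480 in library 4). Values without knockout library 3 are therefore given beside several of the results.

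Genes that passed the test lay in glucose entry, the control of flux, aldolase, lactate dehydrogenase and the HIF arm. Across the 37 genes, 7 rose in knockout macrophages (Slc2a1, Pfkfb3, Pdk1, Ldhb, Hif1a, Egln3 and Vegfa) and 3 fell (Aldoc, Ldha and Bnip3l) at an adjusted p under 0.05 in edgeR's quasi-likelihood test. That is 18.9% higher and 8.11% lower, beside 8.97% higher and 11% lower (19.9% in either direction) among all genes tested. The median log2 fold change of the 37 genes was 0.16, against 0.038 for all genes tested. Of the 37, 26 were positive (70.3%, beside 54% of all genes tested). Egln3, Vegfa, Ndrg1 and Ankrd37 are among them, and passing the filter through knockout libraries alone favours a positive value. Of these, Egln3 and Vegfa also count among the genes that rose and those without overlap. In 10 genes every knockout library exceeded every wild type library, and in 2 every knockout library was below. These are 27% and 5.41% of the list, beside 10.9% and 9.87% of all genes tested. The list was chosen with earlier results of these data known, so a difference from all genes may come from that choice. By role, 1 higher and 2 lower were counted among 17 glycolytic enzymes (5.88% and 11.8%), near the shares of all genes tested. Among 8 transporters and flux regulators 3 were higher and 0 lower (37.5% and 0%). The 6 genes of HIF, VHL and the hydroxylases gave 2 higher and 0 lower (33.3% and 0%), and the 6 HIF targets 1 and 1 (16.7% and 16.7%). These groups are small. The summed level of the 37 genes was 4519 to 5005 CPM in knockout and 4566 to 4934 CPM in wild type libraries, ranges that overlap.

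Fold changes in these libraries followed gene length: the median log2 fold change was -0.42 over genes of up to 970 bases and 0.14 over genes of 6045 bases or more. With that trend removed, 5 of the 37 were higher and 3 lower, beside 6.74% and 9.35% of all genes. The balance of directions depended on scaling. Over all genes, 1152 were higher and 1409 lower, against 1966 and 1013 when libraries were scaled by their totals alone, and 468 and 3131 when the length correction was not centred. In the same order the 37 genes gave 7 higher and 3 lower, 12 and 1, and 3 and 8.

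**Figure D1:**
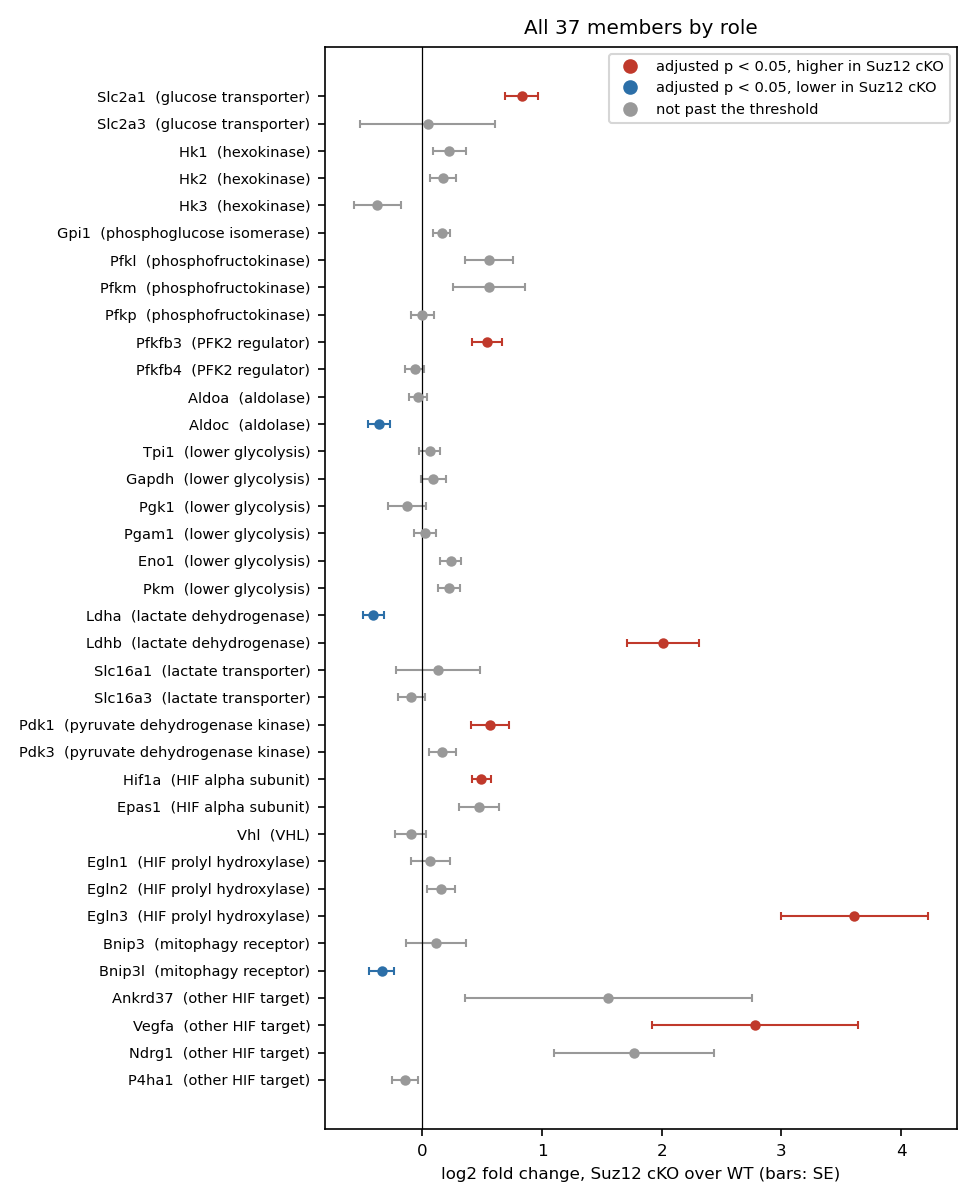
Log2 fold change of each of the 37 genes, knockout over wild type, with its standard error as a bar, grouped by role. Ldhb, Vegfa and Egln3 lie at 2.01, 2.78 and 3.61, while the 6 enzymes of lower glycolysis lie between -0.13 and 0.24.

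Letters of the core HIF binding motif, ACGTG and GCGTG, were searched on both strands of promoter windows from 250 bases before to 50 after each annotated start (RefSeq, GRCm38.p6). The sequence table held windows for 33 of the 37 genes, 48 windows in all, and 81.2% of them held at least 1 match, beside 43.8% of 32851 windows of all genes. For ACGTG alone the shares were 56.2% and 19.6%. Both strings contain CG, and the shares were not adjusted for base composition or limited to genes that were tested. Some windows of Aldoa, Eno1 and Pfkm overlap, so the same match can count in more than 1 window. A CACGTG string holds ACGTG on both strands and counts on each. Shown here, with matches in capitals, are windows of the hydroxylase and the transporter gene that rose and of both lactate dehydrogenase genes, which moved in opposite directions.
Egln3, chr12:54203825-54204124, minus strand: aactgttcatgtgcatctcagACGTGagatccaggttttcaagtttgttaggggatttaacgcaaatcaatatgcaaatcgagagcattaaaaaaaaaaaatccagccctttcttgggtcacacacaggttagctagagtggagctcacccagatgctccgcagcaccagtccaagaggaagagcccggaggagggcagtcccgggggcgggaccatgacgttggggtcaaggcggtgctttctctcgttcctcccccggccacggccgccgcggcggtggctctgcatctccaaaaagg
Slc2a1, chr4:119108495-119108794, plus strand: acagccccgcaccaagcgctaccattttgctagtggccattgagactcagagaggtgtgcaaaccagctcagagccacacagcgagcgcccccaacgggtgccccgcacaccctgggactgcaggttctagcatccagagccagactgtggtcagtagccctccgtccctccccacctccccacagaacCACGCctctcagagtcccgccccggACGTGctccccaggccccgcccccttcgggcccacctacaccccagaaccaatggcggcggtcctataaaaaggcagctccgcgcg
Ldhb, chr6:142507908-142508207, minus strand: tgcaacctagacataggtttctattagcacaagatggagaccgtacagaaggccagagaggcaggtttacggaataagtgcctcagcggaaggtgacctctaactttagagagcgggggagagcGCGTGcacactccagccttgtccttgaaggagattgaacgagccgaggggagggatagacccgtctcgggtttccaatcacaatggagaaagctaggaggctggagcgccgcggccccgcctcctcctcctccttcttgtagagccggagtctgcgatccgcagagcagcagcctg
Ldha, chr7:46845554-46845853, plus strand: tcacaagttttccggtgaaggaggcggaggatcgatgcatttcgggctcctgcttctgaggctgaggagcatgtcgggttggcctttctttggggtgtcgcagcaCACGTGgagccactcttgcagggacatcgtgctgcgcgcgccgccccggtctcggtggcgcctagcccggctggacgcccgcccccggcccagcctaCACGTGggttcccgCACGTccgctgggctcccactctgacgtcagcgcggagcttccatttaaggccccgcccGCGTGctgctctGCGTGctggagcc
The window shown for Ldha, which fell, held 7 matches with CACGTG counted on each strand, and its other window held 2. The windows shown for 3 genes that rose held 1 (Egln3), 2 (Slc2a1) and 1 (Ldhb, in which no ACGTG occurs). Of other genes that rose, Pfkfb3 had windows with 4 and 1 matches, Hif1a 1 window with 3, and Pdk1 windows with 2 and 0. Aldoc, which fell, had windows with 3 and 1. Vegfa had 2 windows, with 2 matches in one and 0 in the other. A match is a run of letters in this window and says nothing about binding.

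Glucose enters through Slc2a1, the widespread glucose transporter, and Slc2a3, a high-affinity transporter best known from neurons. Slc2a1 (Entrez Gene 20525, chromosome 4, 119108745 to 119137330, build GRCm38 as for all positions below) was at 43.1, 44.2, 36.4, 52 and 50.3 CPM in knockout libraries 1 to 5, against 22.8, 27.2, 22.2 and 29.4 CPM in wild type libraries 1 to 4. Every knockout library lay above every wild type library (log2 fold change 0.83, SE 0.14, adjusted p = 0.000822), and the log2 fold change was 0.79 with the length trend removed. Slc2a3 averaged 1.77 ± 0.617 CPM in knockout and 1.71 ± 1.1 CPM in wild type (SD, n = 5 and 4, as in all means below), and did not pass (log2 fold change 0.043, SE 0.57, adjusted p = 0.968). Slc2a3 made up 2.48 ± 0.818% in knockout and 4.14 ± 2.62% in wild type of the pair's summed RPKM (CPM per kilobase of gene length), so Slc2a1 was nearly all of it.

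Hexokinases trap glucose as its phosphate, and none of the 3 passed the test. Hk1, the ubiquitous form, averaged 26.1 ± 2.81 CPM in knockout and 22.4 ± 3.44 CPM in wild type (adjusted p = 0.29). Hk2, the inducible form, averaged 42.8 ± 3.87 CPM in knockout and 37.9 ± 2.8 CPM in wild type (adjusted p = 0.292). Hk3, a form found in myeloid cells, ran from 30.2 to 73.4 CPM in knockout, with its lowest value in knockout library 3, and from 58.9 to 70.4 CPM in wild type (log2 fold change -0.38, SE 0.20, adjusted p = 0.217). Its log2 fold change was -0.23 without knockout library 3, and -0.55 without knockout library 5, where it passed (adjusted p = 0.0465). Per length, Hk3 was the most abundant of the family, at 15.5 ± 5.06 RPKM in knockout and 20.1 ± 1.61 RPKM in wild type. Its share of the family's RPKM averaged 52.2 ± 8.56% in knockout and 62.9 ± 1.5% in wild type, and that of Hk2 27.2 ± 3.72% in knockout and 21.6 ± 0.71% in wild type. Exact permutation tests over the 9 libraries gave p = 0.0238 for Hk3 and 0.0159 for Hk2, and 0.0675 and 0.054 after adjustment over the 17 isozyme shares examined, so neither passed. With shares taken from CPM both passed (adjusted p = 0.045 and 0.045, exact permutation test).

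Gpi1, which isomerises glucose phosphate, was at 331 to 368 CPM in knockout and 304 to 320.1 CPM in wild type. The groups did not overlap, but the difference did not pass (log2 fold change 0.16, SE 0.068, adjusted p = 0.119), except with scaling by totals alone (adjusted p = 0.014). Of the phosphofructokinases, which commit sugar to glycolysis, the platelet form Pfkp was the main one per length, at 42.8 ± 5.02 RPKM in knockout and 42.9 ± 1.96 RPKM in wild type. Pfkl, the liver form, was at 54.5, 45.9, 96.4, 50.4 and 48.1 CPM in knockout, against 35.9, 45.3, 43.1 and 36.5 CPM in wild type. Knockout library 3 was far above the rest, and the lowest knockout library was barely above the highest wild type library. Pfkl did not pass (log2 fold change 0.56, SE 0.20, adjusted p = 0.0652), and its log2 fold change was 0.31 without knockout library 3. It passed with DESeq2 (adjusted p = 0.0355), with scaling by totals alone (0.0209) and without knockout library 2 (0.0491). Pfkm, the muscle form, was scarce, at 6.3 ± 0.757 CPM in knockout and 4.26 ± 1.88 CPM in wild type (adjusted p = 0.229).

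Phosphofructokinase is in turn controlled by bifunctional enzymes that make and remove a strong activator of it. Pfkfb3, the form with high kinase activity (Entrez Gene 170768, chromosome 2, 11471430 to 11554071), was at 42.5, 44.6, 57.1, 42.8 and 48.3 CPM in knockout libraries, against 30.4, 36.1, 28.5 and 34.4 CPM in wild type libraries. The groups did not overlap (log2 fold change 0.54, SE 0.12, adjusted p = 0.00672), and the log2 fold change was 0.39 (adjusted p = 0.036) with the length trend removed. Pfkfb4, which hypoxia induces in many cells, was more abundant and did not pass, at 200.2 ± 8.65 CPM in knockout and 209 ± 18.8 CPM in wild type (log2 fold change -0.065, adjusted p = 0.629). Pfkfb4 made up 87 ± 1.93% in knockout and 91 ± 1.12% in wild type of the pair's RPKM. No knockout library reached the share of any wild type library (exact permutation p = 0.00794, the smallest that 5 against 4 libraries allow, adjusted 0.045). With any 1 library left out, which raises that smallest p, none of the 17 shares passed after adjustment. The adjusted value of 0.045 rests on 3 shares that all had the smallest p. No share was tested with the length trend removed, and Pfkfb3 (5285 bases) is longer than Pfkfb4 (3361 bases).

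**Figure D2:**
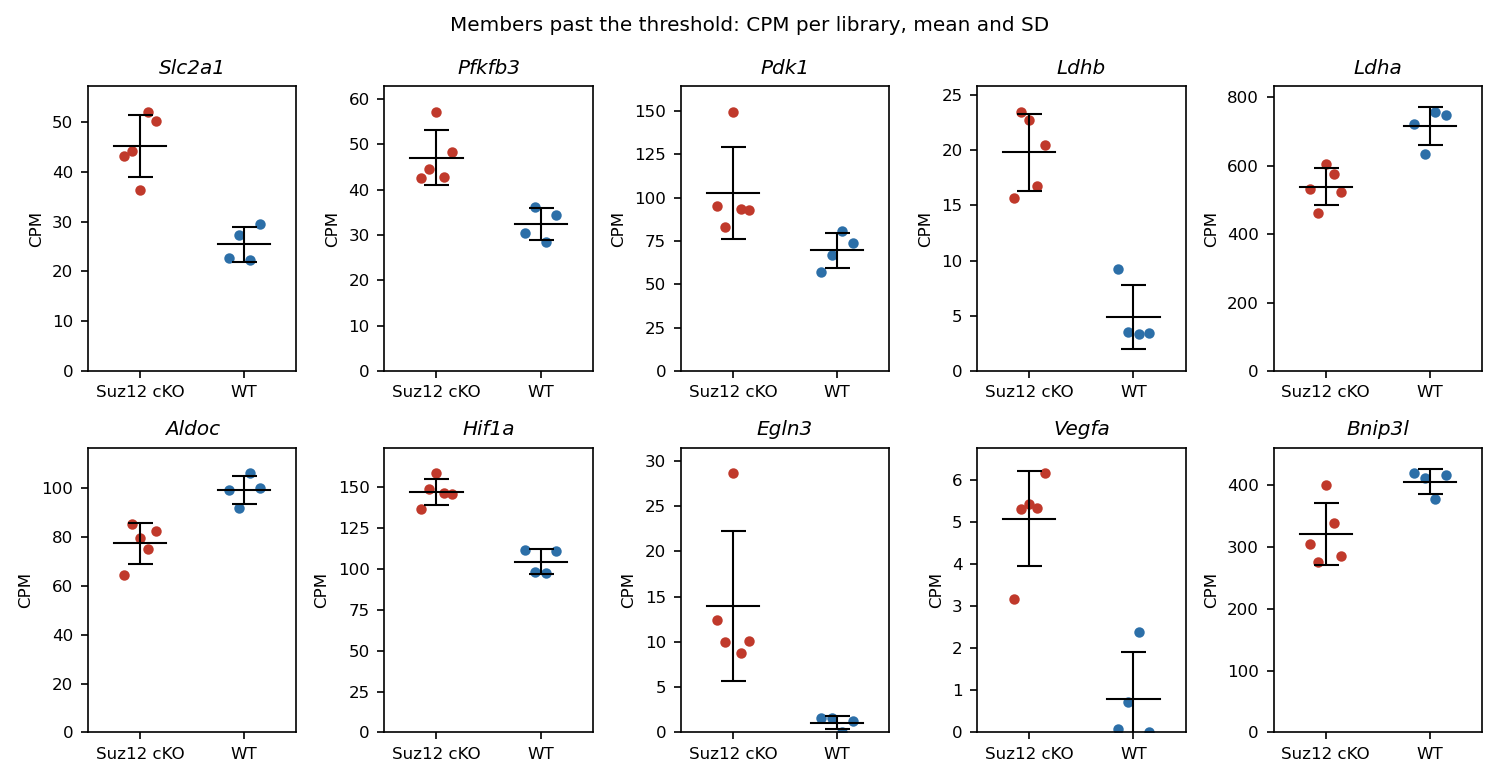
CPM in each library of the 10 genes past the threshold, Suz12 cKO on the left (5 points) and WT on the right (4 points), with the mean and SD. The groups overlap in Bnip3l and in none of the other 9.

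Aldolases cleave the phosphorylated sugar into trioses. Aldoa, the main form here, was the most abundant of the 37 genes per length, at 544 ± 40.2 RPKM in knockout and 557 ± 22.6 RPKM in wild type, and did not pass (log2 fold change -0.035, SE 0.075, adjusted p = 0.794). Aldoc, best known from brain (Entrez Gene 11676, chromosome 11, 78323073 to 78327781), was at 64.3, 85.3, 79.6, 74.9 and 82.2 CPM in knockout and at 99.3, 92, 106 and 100.1 CPM in wild type. All knockout libraries were below all wild type libraries (log2 fold change -0.36, SE 0.094, adjusted p = 0.0144). With libraries scaled by their totals alone, Aldoc no longer passed (log2 fold change -0.24, adjusted p = 0.0776).

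The 6 enzymes from triose phosphate to pyruvate gave no call in either direction. Their log2 fold changes ran from -0.13 for Pgk1, a kinase that makes ATP (adjusted p = 0.63), to 0.24 for the enolase Eno1. Eno1 averaged 206 ± 21.4 CPM in knockout and 175 ± 5.57 CPM in wild type, with no overlap between the groups (adjusted p = 0.0722, but 0.0497 and 0.0464 without knockout library 1 or 3 and 0.0181 with scaling by totals alone). The pyruvate kinase gene Pkm averaged 579.9 ± 52.7 CPM in knockout and 496 ± 53.1 CPM in wild type (adjusted p = 0.107, but 0.049 without wild type library 4 and 0.0175 with scaling by totals alone). For the isomerase Tpi1 the averages were 154 ± 10.8 CPM in knockout and 147 ± 12.8 CPM in wild type, and for the mutase Pgam1 112 ± 10.2 CPM in knockout and 110.5 ± 8.77 CPM in wild type. Gapdh, often used as a reference transcript, averaged 44.2 ± 2.11 CPM in knockout and 41.5 ± 5.14 CPM in wild type (log2 fold change 0.092, SE 0.11). Per length, Gapdh stood at 35.9 ± 1.72 RPKM in knockout and 33.7 ± 4.17 RPKM in wild type, well below Pkm at 223 ± 20.3 RPKM in knockout and 191 ± 20.4 RPKM in wild type. Of the windows of 85 bases, the read length, in the longest coding transcript of Gapdh, 79.4% also occur in transcripts of 103 other annotated genes (GENCODE). The share was 67.3% for Pgk1, 62.7% for Eno1, 40.6% for Bnip3, 40.3% for Pgam1, 13.6% for Ldhb and at most 17.2% for the others. The counting of reads with several matches is not stated in the labels, and the levels of these genes are uncertain. The spans of Hk1, Hk3, Pfkm, Pfkp, Tpi1, Slc16a3, Pfkfb3 and Ankrd37 overlap another counted gene, and whether counting used strand is likewise not stated. The gene over Pfkfb3, Gm10851, averaged 0.0513 CPM. Averages of the others were 128 CPM for Csnk1d over Slc16a3, 56.7 CPM for Pitrm1 over Pfkp and 52.1 CPM for Ufsp2 over Ankrd37. Senp1 over Pfkm averaged 33.1 CPM, Spsb2 over Tpi1 24.1 CPM, Unc5a over Hk3 3.34 CPM and Hk1os over Hk1 0.023 CPM. The part of these genes in the members' counts was not tested.

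Lactate dehydrogenase is built from A and B subunits, and their genes changed in opposite directions. Ldha, whose subunit favours the making of lactate (Entrez Gene 16828, chromosome 7, 46842274 to 46855627), was at 531, 462, 604, 576 and 523 CPM in knockout libraries and at 723, 634, 757 and 748 CPM in wild type libraries. Each knockout library lay below each wild type library (log2 fold change -0.41, SE 0.089, adjusted p = 0.00546), and the log2 fold change was -0.41 with the length trend removed. Ldhb, whose heart-type subunit favours the use of lactate (Entrez Gene 16832, chromosome 6, 142490249 to 142507957), was at 15.6, 23.5, 22.7, 16.8 and 20.5 CPM in knockout, against 9.22, 3.57, 3.34 and 3.41 CPM in wild type. Wild type library 1 was high within its group and still below every knockout library. Ldhb rose by 2.01 on the log2 scale (SE 0.30, adjusted p = 0.000429), and by 2.54 without wild type library 1. Ldha remained the larger of the pair per length, at 279 ± 28.2 RPKM in knockout and 371 ± 29.2 RPKM in wild type, with Ldhb at 15.4 ± 2.71 RPKM in knockout and 3.79 ± 2.24 RPKM in wild type. Ldhb made up 4.22, 7.06, 5.33, 4.18 and 5.55% of the pair's RPKM in knockout libraries and 1.87, 0.835, 0.655 and 0.678% in wild type libraries. No knockout share was as low as any wild type share, with means of 5.27 ± 1.18% in knockout and 1.01 ± 0.581% in wild type (exact permutation p = 0.00794, adjusted 0.045). The calls of Ldha, Ldhb and Slc2a1 held in all 19 alternatives that were run.

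**Figure D3:**
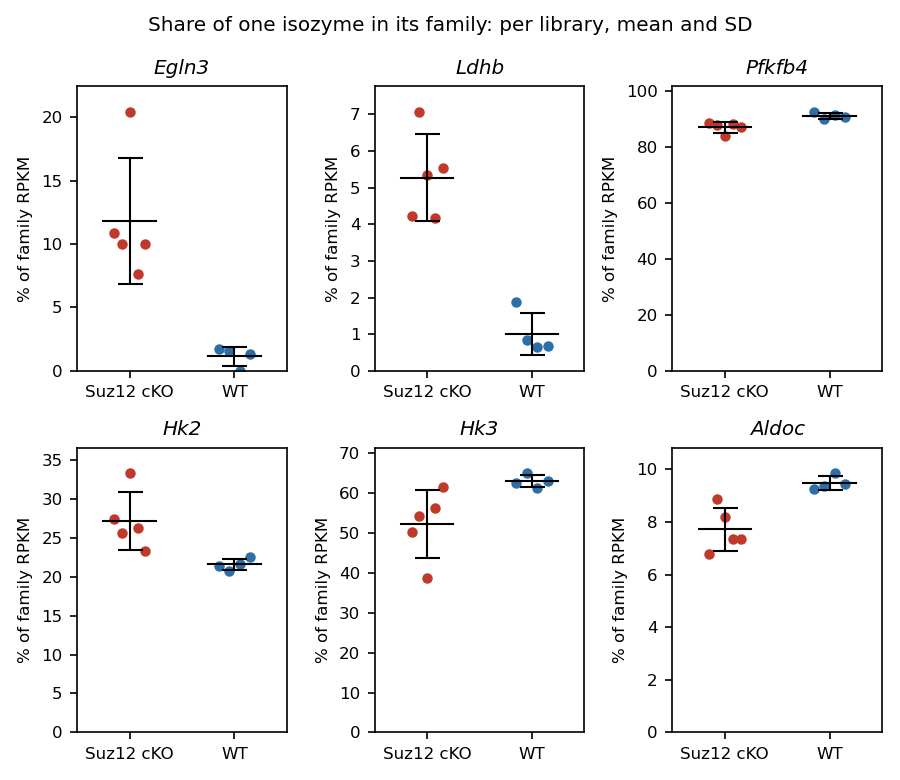
Share of the summed RPKM of its family taken by each of 6 isozymes, per library, Suz12 cKO left and WT right, with mean and SD. Egln3, Ldhb and Hk2 take a larger share in every knockout library than in any wild type library, and Pfkfb4 and Aldoc a smaller one.

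Lactate crosses the cell membrane through Slc16a1 and Slc16a3, and neither passed the test. Slc16a1 ran from 21.7 to 74.2 CPM in knockout, lowest in knockout library 3, and from 32.1 to 61.9 CPM in wild type (log2 fold change 0.13, SE 0.35, and 0.34, SE 0.21, without knockout library 3). Slc16a3, the exporter of glycolytic cells, averaged 58.9 ± 5.89 CPM in knockout and 62.7 ± 8.16 CPM in wild type (adjusted p = 0.619). Pyruvate dehydrogenase kinases keep pyruvate out of mitochondrial oxidation, and Pdk1 is a HIF-induced form. Pdk1 (Entrez Gene 228026, chromosome 2, 71873215 to 71903858) was at 95.5, 83.3, 149.6, 93.3 and 92.8 CPM in knockout libraries, against 57.2, 66.8, 80.9 and 74.1 CPM in wild type. The groups were separated by a small gap, with knockout library 3 far above the rest. Pdk1 rose by 0.56 on the log2 scale (SE 0.16, adjusted p = 0.0221), and by 0.40 without knockout library 3. It was not called with the length trend removed (0.42, adjusted p = 0.144) or without wild type library 1 or 2 (adjusted p = 0.0741 and 0.0571). Pdk3 averaged 36.8 ± 2.47 CPM in knockout and 32.8 ± 3.88 CPM in wild type (adjusted p = 0.35).

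Of the HIF alpha subunits Hif1a and Epas1, Hif1a was the more abundant per length and rose. Hif1a (Entrez Gene 15251, chromosome 12, 73901324 to 73947554) was at 137, 149, 158, 146 and 146 CPM in knockout, against 112, 97.9, 97.5 and 111 CPM in wild type. The groups did not overlap (log2 fold change 0.49, SE 0.082, adjusted p = 0.000882), and the log2 fold change was 0.36 (adjusted p = 0.00872) with the length trend removed. With the length correction that was not centred, neither Hif1a (0.16, adjusted p = 0.217) nor Pfkfb3 (0.20, adjusted p = 0.272) was called. Epas1, which encodes the other HIF alpha subunit, averaged 35.8 ± 9.3 CPM in knockout and 25.9 ± 1.82 CPM in wild type, with its highest value in knockout library 3. Its log2 fold change of 0.47 (SE 0.17) did not pass (adjusted p = 0.062), and was 0.32 without knockout library 3. Epas1 passed with DESeq2 (adjusted p = 0.0497), with scaling by totals alone (0.0163) and without knockout library 1 (0.0397). Epas1 made up 17.6 ± 2.97% in knockout and 18.1 ± 1.73% in wild type of the pair's RPKM.

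Vhl, the substrate receptor of the ligase that removes HIF, did not pass, at 43.3 ± 4.77 CPM in knockout and 46.3 ± 8.42 CPM in wild type. Neither did Egln1, the chief oxygen sensor among the hydroxylases, at 52.4 ± 7.63 CPM in knockout and 49.9 ± 12.2 CPM in wild type, or Egln2, at 47.3 ± 3.57 CPM in knockout and 42.5 ± 6.93 CPM in wild type. Egln3, itself strongly induced by HIF, had the largest log2 fold change of the 37 genes. Egln3 (Entrez Gene 112407, chromosome 12, 54178981 to 54203874) was at 12.4, 10.03, 28.6, 8.76 and 10.1 CPM in knockout libraries, against 1.55, 1.56, 0 and 1.22 CPM in wild type libraries. Every knockout library exceeded every wild type library, and knockout library 3 held more than any other. Wild type library 3 had no Egln3 count, which at its depth allows up to 0.239 CPM (3 counts, counting error only). The log2 fold change was 3.61 (SE 0.62, adjusted p = 0.00197), and 3.19 (adjusted p = 0.000973) without knockout library 3. Egln3 was not called with a block for the replicate number (log2 fold change 3.58, adjusted p = 0.069). It was not called with that block and the length trend removed either (adjusted p = 0.0892). Within the family, Egln3 took 11.8 ± 4.96% in knockout and 1.14 ± 0.776% in wild type of the RPKM (exact permutation p = 0.00794, adjusted 0.045), while Egln2 had the largest mean share, at 53.2 ± 4.95% in knockout and 58.2 ± 10.1% in wild type.

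Bnip3 and Bnip3l are HIF targets that mark mitochondria for removal. Bnip3l (Entrez Gene 12177, chromosome 14, 66985238 to 67008877) was at 305, 276, 400.2, 338 and 286 CPM in knockout and at 419, 412, 377 and 416 CPM in wild type. The groups overlapped, because knockout library 3 exceeded wild type library 3. Bnip3l fell (log2 fold change -0.34, SE 0.10, adjusted p = 0.0331), with a log2 fold change of -0.42 (adjusted p = 0.00242) without knockout library 3. Leaving out any of knockout libraries 1, 2 and 5 and wild type libraries 1, 2 and 4 ended the call (adjusted p = 0.0614 to 0.0975), as did scaling by totals alone (adjusted p = 0.109). A block for the replicate number ended it too (adjusted p = 0.0791). Bnip3 was at 17.6, 15.3, 36.1, 16.7 and 15.3 CPM in knockout and at 17.2, 14.8, 23.5 and 19.5 CPM in wild type. It did not pass (log2 fold change 0.11, SE 0.25, and -0.20 without knockout library 3).

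The remaining HIF targets were mostly scarce. Vegfa, a growth factor for blood vessels (Entrez Gene 22339, chromosome 17, 46016993 to 46032377), was at 3.17, 5.31, 5.45, 5.34 and 6.17 CPM in knockout libraries, against 0.0913, 0.721, 2.39 and 0 CPM in wild type. Those values rest on 103 to 295 counts in knockout and on 2, 18, 30 and 0 counts in wild type. Knockout libraries were all above the wild type ones, which differed widely among themselves. The log2 fold change was 2.78 (SE 0.86, adjusted p = 0.0373), and 4.19 with wild type library 3, the highest of its group, left out. Leaving out any of knockout libraries 1, 2, 4 and 5 and wild type libraries 1 and 2 ended the call (adjusted p = 0.0545 to 0.0819), as did removing the length trend (adjusted p = 0.0616) and using DESeq2 (adjusted p = 0.0509), no filter (0.0561) or the length correction that was not centred (0.0639). In all, the call was lost in 11 of 19 alternatives. Ndrg1, a stress-induced gene, was at 4.29, 4.47, 1.6, 4.3 and 5.54 CPM in knockout and at 0.228, 0.28, 2.78 and 1.6 CPM in wild type (log2 fold change 1.77, SE 0.67, adjusted p = 0.0819). The ranges overlapped, since knockout library 3 was low and wild type library 3 high. Ndrg1 passed with DESeq2 (adjusted p = 0.0299) and without wild type library 3 (log2 fold change 2.53, adjusted p = 0.0168). Ankrd37 had 14 to 66 counts in knockout libraries, and in wild type 24 counts in library 4 and 0 in libraries 1 to 3 (log2 fold change 1.55, SE 1.20, adjusted p = 0.41). That 1 library decided the call, since without it Ankrd37 passed (adjusted p = 0.00985). P4ha1, a collagen prolyl hydroxylase subunit, averaged 59.9 ± 3.08 CPM in knockout and 66.4 ± 10.6 CPM in wild type (adjusted p = 0.381).

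**Figure D4:**
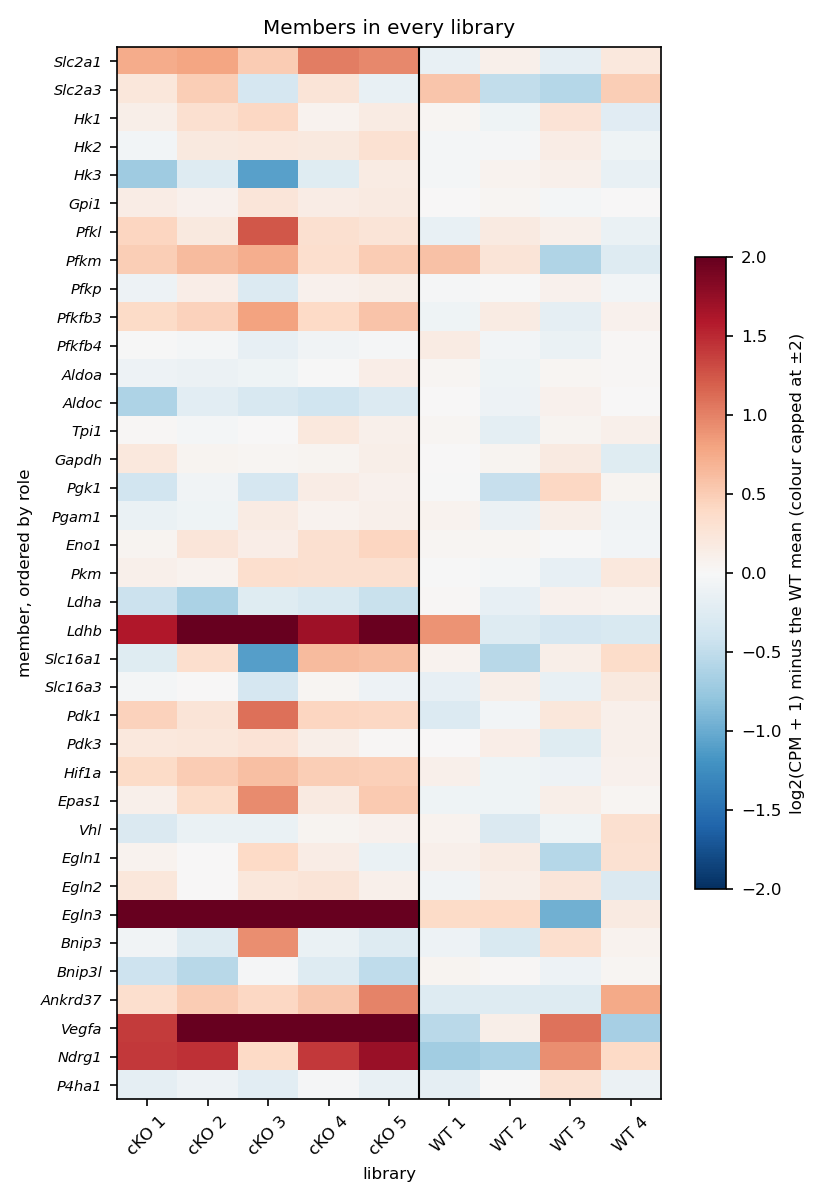
Difference of each gene from its wild type mean in every library, as log2(CPM + 1) with colours capped at 2, the 5 Suz12 cKO libraries left of the 4 WT libraries. Ldhb, Egln3 and Vegfa are raised in all 5 knockout libraries, and knockout library 3 is the highest of its group for Pfkl, Pdk1 and Bnip3 and the lowest for Hk3 and Slc16a1.

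Knockout library 3 had the highest level within its group of Pfkl, Pdk1, Pfkfb3, Hif1a, Epas1, Egln3, Bnip3 and Bnip3l, among others, and the lowest of Hk3, Slc16a1, Slc16a3, Slc2a1 and Ndrg1, among others. Its interstitial macrophage and monocyte markers summed to 1899 CPM, against 386 to 651 CPM in the other knockout libraries, and the part of that difference in these values was not tested. Without this library 8 of the 37 genes were higher and 3 lower, beside 1111 higher and 1410 lower of 12717 genes tested in that fit.

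Related genes outside the 37 were examined from lists. These too were chosen with earlier results of these data known, so their shares beside those of all genes may come from that choice. Among 28 tested of 41 other genes of glycolysis and pyruvate handling, 5 were higher and 2 lower (17.9% and 7.14%, beside 8.97% and 11% of all genes tested), with a median log2 fold change of 0.080. With the length trend removed, 2 were higher and 0 lower. Pdk4, a pyruvate dehydrogenase kinase linked to fat oxidation, averaged 24.1 ± 5.38 CPM in knockout and 13.2 ± 3.72 CPM in wild type (log2 fold change 0.87, SE 0.21, adjusted p = 0.00909). The pyruvate dehydrogenase complex genes Pdhx (log2 fold change 0.54, adjusted p = 0.0157) and Pdha1 (0.31, adjusted p = 0.0324) also rose, Pdha1 not with the length trend removed (adjusted p = 0.073). Mpc1 and Mpc2, which form the mitochondrial pyruvate carrier, fell. Mpc1 averaged 74.3 ± 15.5 CPM in knockout and 116 ± 16.9 CPM in wild type (log2 fold change -0.64, adjusted p = 0.00503), and Mpc2 104 ± 27 CPM in knockout and 146 ± 7.89 CPM in wild type (-0.49, adjusted p = 0.0273). These are short genes of 907 and 854 bases, and neither was called with the length trend removed (adjusted p = 0.0501 and 0.327).

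In the pentose phosphate pathway, which branches from glycolysis and makes NADPH, 2 of 8 tested genes were higher and 0 lower (25% and 0%, beside 8.97% and 11% of all genes tested), with a median log2 fold change of 0.15. These were the dehydrogenases Pgd, at 598 ± 37.8 CPM in knockout and 511 ± 16.6 CPM in wild type (log2 fold change 0.23, adjusted p = 0.0428), and G6pdx, at 193 ± 10.01 CPM in knockout and 165 ± 4.83 CPM in wild type (0.23, adjusted p = 0.0449). With the length trend removed neither was called (adjusted p = 0.0644 and 0.0847), and 0 were higher and 1 lower, the epimerase gene Rpe (log2 fold change -0.39, adjusted p = 0.0344), which was outside the naming rule and chosen after its values were seen.

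Among 12 tested of 15 other HIF subunits and regulators, 1 was higher and 4 lower (8.33% and 33.3%, beside 8.97% and 11% of all genes tested), with a median log2 fold change of 0.077. Eloc, Elob and Rbx1, partners of Vhl in its ubiquitin ligase, fell, with log2 fold changes of -0.71, -0.51 and -0.48 (adjusted p = 0.00063, 0.00182 and 0.0065). Elob, 508 bases long, was not called with the length trend removed (-0.041, adjusted p = 0.845), while Eloc (-0.45, adjusted p = 0.0051) and Rbx1 (-0.43, adjusted p = 0.00798) were. The ubiquitin ligase Siah2, which targets prolyl hydroxylases, rose (log2 fold change 0.50, adjusted p = 0.0157), and its relative Siah1a fell (-0.57, adjusted p = 0.0389).

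Among 29 tested of 38 other hypoxia response genes, 8 were higher and 3 lower (27.6% and 10.3%, beside 8.97% and 11% of all genes tested), with a median log2 fold change of 0.23. Tfrc, the transferrin receptor, averaged 199 ± 41.9 CPM in knockout and 44.4 ± 7.39 CPM in wild type (log2 fold change 2.17, SE 0.16, adjusted p = 5.72e-06). Hilpda, a lipid droplet protein that slows fat breakdown, averaged 118 ± 48 CPM in knockout and 27.1 ± 3.57 CPM in wild type (log2 fold change 2.13, SE 0.26, adjusted p = 0.00039). The small GTPase gene Rab20 (log2 fold change 1.19, adjusted p = 0.00429) and Zfp395 (0.70, adjusted p = 0.00452) rose as well. Fam162a, a mitochondrial protein gene of 635 bases, fell (log2 fold change -0.59, adjusted p = 0.00155), but not with the length trend removed (adjusted p = 0.362).

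**Figure D5:**
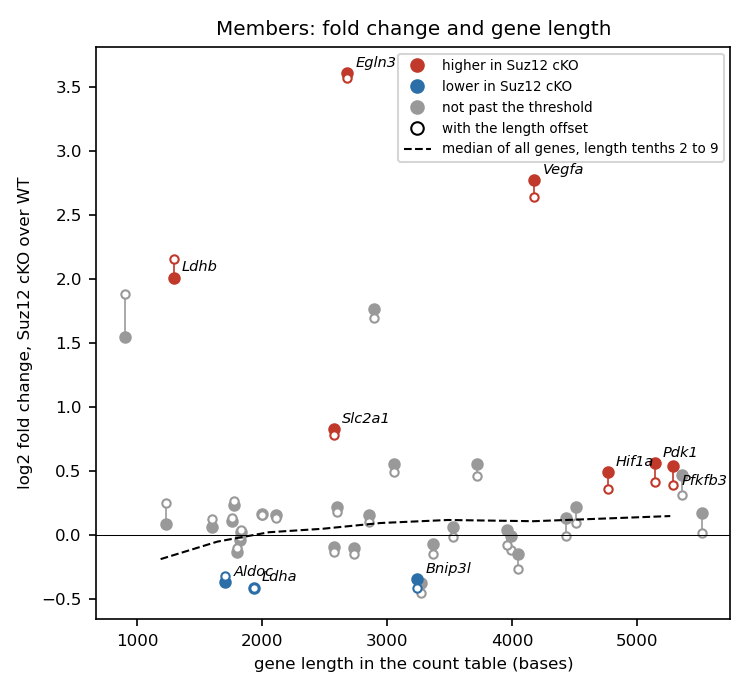
Log2 fold change of each of the 37 genes against its length in the count table (filled points) and the same with the length trend removed (open points), with the median of all genes by length as a dashed line. Hif1a goes to 0.36 with the trend removed and was 0.49 without the correction, while Ldhb, a shorter gene, goes to 2.16 and was 2.01.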

How the data were processed

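The authors deposited whole-number counts of reads per gene for 9 libraries, with a length for each gene, and the single tables and the joint table hold the same counts. Counting was done with featureCounts on mm10, per the submitters' processing notes; for the aligner, annotation release and strand use, nothing is given in the sources used here. Per the series text, libraries were TruSeq, read from a single end. Symbols and positions came from RefSeq (GRCm38.p6) by Entrez Gene ID, which named 93% of 27179 IDs.

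The counts were tested in R 4.3.3 with edgeR 4.0.16 (filterByExpr, TMM scaling, robust quasi-likelihood test, Benjamini-Hochberg over all 12840 genes tested), with limma 3.58.1 and DESeq2 1.42.0 as alternatives. The fit was tested on simulated data first. CPM used TMM-scaled library sizes, and RPKM divided CPM by the deposited gene length. The length trend was removed by an offset, a loess fit (span 0.5) of library deviations on log2 length; centring that curve on its mean was chosen after seeing the data. Isozyme shares were compared by two-sided exact permutation tests over libraries. Other alternatives changed the scaling, the filter, the replicate block, or left out each library in turn. All 37 members are named, those past the threshold with every library's value, and up to 5 genes past the threshold with the smallest adjusted p from each related list. Members and lists were chosen with earlier results of these data known. The p-values measure the spread between these libraries.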

Additional observations from a re-analysis of the deposited data

Results flagged for a closer look

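In 10 of 74 groups of libraries, 1 library lay far from the others of its group by Dixon's test, where chance gives about 1 in 20, or 3.7. Knockout library 3 was the highest of its group for Pfkl (96.4 CPM, the nearest at 54.5 CPM), Pdk1 (149.6 CPM, the nearest at 95.5 CPM), Egln3 (28.6 CPM, the nearest at 12.4 CPM) and Bnip3 (36.1 CPM, the nearest at 17.6 CPM). Among knockout libraries, Ankrd37 was high in library 5 (1.38 CPM, the nearest at 0.726 CPM) and Vegfa was low in library 1 (3.17 CPM, the nearest at 5.31 CPM). Among wild type libraries, Aldoa was low in library 2 (955 CPM, the nearest at 1029 CPM) and Bnip3l was low in library 3 (377 CPM, the nearest at 412 CPM). Ldhb was high in wild type library 1 (9.22 CPM, the nearest at 3.57 CPM), and Ankrd37 was detected in wild type library 4 alone (1.01 CPM, the others at 0).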

How the results depend on the processing

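Of 703 values of the 37 genes under the alternatives, 605 kept direction and side of the threshold, 30 lost a call, 24 gained one and 44 changed sign, all of these in genes that were not called. The cause was not tested for any of them. With libraries scaled by totals alone, 1966 genes were higher, 12 members were higher and 1 lower; the median log2 fold change of all genes was 0.15, against 0.038 with TMM, and the values that changed sign were Pfkp 0.12, Aldoa 0.083, Pgk1 0.0015, Slc16a3 0.025, Pfkfb4 0.050, Vhl 0.022. With no filter on low counts the sign changed for Pfkp 0.013, and with the length trend removed for Slc2a3 -0.071, Slc16a1 -0.0021, Egln1 -0.014. With the length correction not centred, the median of all genes was -0.20, 468 genes were higher and 3131 lower, 3 members were higher and 8 lower, and the sign changed for Hk1 -0.11, Hk2 -0.19, Gpi1 -0.093, Tpi1 -0.074, Pgam1 -0.16, Pkm -0.013, Slc2a3 -0.26, Slc16a1 -0.21, Pdk3 -0.038, Egln1 -0.20, Egln2 -0.066, Bnip3 -0.059; Hk3, Pfkp, Pfkfb4, Slc16a3 and P4ha1 were called lower, and Pdk1 was not called (0.476). Over the fits without 1 library, 772 to 1434 genes were higher and 1074 to 1521 lower, 5 to 9 members were higher and 2 to 3 lower. In those fits Pfkp ran from -0.039 to 0.067, Pgk1 from -0.26 to 0.039, Pgam1 from -0.012 to 0.075, Slc2a3 from -0.19 to 0.38, Slc16a1 from -0.023 to 0.34, Pfkfb4 from -0.10 to 0.0037, Vhl from -0.19 to 0.027, Egln1 from -0.077 to 0.18 and Bnip3 from -0.20 to 0.25 on the log2 scale. The difference in share, in percentage points, ran from -5.39 to 1.01 for Slc16a3 and from -1.67 to 0.259 for Epas1. Of the isozyme shares 3 passed, 6 with shares of CPM, and 0 to 0 with any library left out, where fewer splits limit the smallest p.

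Deviations of libraries with the same replicate number had correlations of 0.0364, 0.0324, -0.0565 and 0.115. Libraries of unlike number were not compared, so these values cannot decide whether the numbers pair the libraries. With the replicate block, 749 genes were higher and 1103 lower, 7 members were higher and 3 lower, and the sign changed for Slc16a1 -0.093. These are not the same members as without the block: Egln3 (adjusted p = 0.069) and Bnip3l (0.0791) were not called, and Pfkl (0.0461) and Hk3 (0.0424) were. With the block and the length trend removed, 465 genes were higher and 785 lower, 4 members were higher and 3 lower, and the sign changed for Hk2 -0.0076, Slc16a1 -0.21; Egln3 (0.0892), Vegfa (0.0607), Aldoc (0.0548) and Pfkfb3 (0.117) were not called, and Hk3 (0.0413) was.

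Counts of Vegfa, Ankrd37, Ndrg1 and Egln3 were low in wild type, where single libraries held 0 to 39 counts. Vegfa had 2, 18, 30 and 0 counts in wild type libraries 1 to 4, whose depths were 22.5, 24.8, 13.8 and 25.3 M. The part of depth in these counts was not tested. Egln3 had 0 counts in wild type library 3 and 29 to 39 in the others. The knockout libraries were on the whole deeper than the wild type ones.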
